A study of Mus musculus with 24 samples.

Results

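On day 2 after removal of 50% of the pancreas, islets of 52-week-old mice differed from those of 8-week-old mice in 1394 of 13984 genes tested (9.97%). In the old islets, 31 of 45 S phase genes, 30 of 51 genes of G2 and mitosis and 21 of 35 chaperones and folding genes of the endoplasmic reticulum (ER) were lower, and 12 of 24 macrophage and myeloid markers, 8 of 37 interferon response genes and 9 of 25 targets of the PERK and ATF4 branch were higher. The libraries described are the 4 labelled old and the 4 labelled young at postoperative day 2 (Old_POD2 and Young_POD2), which are 8 of the 24 bulk RNA-seq libraries and were chosen from their titles alone. The remaining libraries are unoperated controls of both ages (4 of 52 weeks and 4 of 8 weeks, used below for comparison) and islets from later days, which were not used here except in 1 alternative fit. The mice were male C57BL/6J without any transgene. The operated animals received partial pancreatectomy (PPTx), whereas the control animals had no operation at all, so that surgery itself is part of any difference from controls. Both day 2 groups were operated. A response to surgery that differs with age cannot be told apart there from other differences between ages. Each library came from whole islets of 1 or 2 mice, and p-values therefore measure the spread between such preparations. In whole islets, fewer cells of a type and less RNA per cell cannot be told apart.

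PPTx leaves the remaining islets with a larger demand for insulin, and in young rodents it is known as a stimulus for replication of β-cells, which otherwise divide rarely. Ageing is known to reduce this capacity, and polycomb repression of the Cdkn2a locus, growth factor receptors and cyclin D2 are among the components linked to it. β-cells also fold very large amounts of proinsulin in the ER, and they adjust chaperones through the ATF6 and IRE1 branches, and translation and amino acid metabolism through the PERK and ATF4 branch, of the unfolded protein response.

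Read counts in genes ranged from 3924105 (young replicate 1) to 11349494 (old replicate 3) per library, and levels are given in CPM, a gene's counts as a proportion of its library (counts per 1e6), scaled by the trimmed mean of M values. Insulin transcripts (Ins1 and Ins2) took 8.49% to 10.3% of counts in the young and 8.56% to 11.3% in the old libraries (exact permutation test, two-sided, p = 1). Genes took up a share of mapped reads of 25.3%, 43.8%, 43.4% and 53.3% in the young and 54.01%, 54.4%, 41.3% and 33.6% in the old libraries (exact permutation p = 0.6, adjusted over 3 such measures p = 0.9). Acinar markers took 0.126% to 1.18% of counts in the young and 0.245% to 4.49% in the old libraries (exact permutation p = 0.486, adjusted p = 0.9), with old replicate 4 far above the rest. The first principal component (46.4% of variance) mixed the ages, and the second (23.5%) placed all 4 old libraries above all 4 young ones. Old replicates 3 and 4 carried the run label W0102 and all other day 2 libraries W0054, so counts within W0054 (2 old against 4 young libraries) are given beside the main results.

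Of the 13984 genes, 1394 (9.97%) passed an adjusted p of 0.05 in edgeR's quasi-likelihood test, 757 of them higher in old islets (5.41%) and 637 lower (4.56%), and 349 (2.5%) also differed by at least 2-fold. At an unadjusted p under 0.05 there were 3621 genes (25.9%), and the CPM of both groups did not overlap for 2107 genes (15.1%). Positive log2 fold changes denote higher levels in old islets throughout. The number of calls depended on single libraries. It was 502 without young replicate 3, 524 without old replicate 3, 694 without young replicate 2, 811 without old replicate 1 and 860 without old replicate 2, and 902 within W0054, and every call kept its sign in each of these fits. Libraries also shared, in pairs within a group, a numeric code of unstated meaning in their deposited names (none for W0102, whose libraries of a group were taken as 1 pair), and 568 genes were called by limma-voom when this code was a random block with an estimated correlation. Counts in that fit are given beside many of the lists below, but not beside all of them.

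Genes that duplicate DNA were lower in old islets for the larger share of their list. Of 45 tested members of the S phase list, 31 were lower and 0 higher in old islets. The groups did not overlap for 31 members, against 2107 of all 13984 genes (15.1%). The median log2 fold change of the list was -1.40, while that of all genes was close to 0. In percent, 68.9% of the list was called, against 9.97% of all genes, and 0 members were higher at an unadjusted p under 0.05 or in DESeq2. This count was 23 within W0054 and 19 to 32 when each library was left out in turn, the lowest without old replicate 3, and 14 with the numeric code as a random block. The mean log2 CPM of the list was 3.56 to 4.47 in young day 2 islets, above the 2.55 to 2.94 of old day 2 islets, the 2.62 to 3.12 of young controls and the 2.595 to 2.89 of old controls.

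The minichromosome maintenance (MCM) proteins, which form the helicase that is loaded on origins of replication and opens DNA ahead of the fork, were among the clearest. Mcm6 (mm9, chr1:130228168-130256233) was measured at 95.3, 79.9, 110.3 and 56.2 CPM in the 4 young libraries and 15.1, 20.1, 23.0 and 22.0 CPM in the 4 old libraries (log2 fold change -2.09, SE 0.22, adjusted p = 0.00142). All 4 young libraries were thus above all 4 old ones, with the lowest young value in replicate 4. Mcm2 was found at 73.8, 52.0, 87.7 and 39.4 CPM in the 4 young libraries and 12.6, 12.9, 16.2 and 16.9 CPM in the 4 old libraries (log2 fold change -2.10, SE 0.25, adjusted p = 0.00239), and Mcm3 at 44.0, 35.3, 40.2 and 19.2 CPM in the 4 young libraries and 4.07, 4.05, 4.58 and 4.83 CPM in the 4 old libraries (log2 fold change -2.98, SE 0.27, adjusted p = 9.03e-04). Mcm3 varied little among the old libraries, and Mcm5 differed by -2.76 (adjusted p = 0.00525), with 24.4 to 55.8 CPM in young and 3.64 to 10.8 CPM in old islets. Mcm4, Mcm7 and Mcm10 differed by -1.46, -1.05 and -2.85 and also passed the threshold. Cdc6, which loads the MCM helicase together with Cdt1, reached 24.9, 16.9, 19.4 and 9.21 CPM in the 4 young libraries and 0.857, 0.674, 0.804 and 3.002 CPM in the 4 old libraries (log2 fold change -3.72, SE 0.52, adjusted p = 0.00423), the largest difference of the list, and Cdt1 differed by -2.599. In old replicate 4 Cdc6 was higher than in the other old libraries but remained below every young value. The flap endonuclease Fen1, which trims Okazaki fragments, showed 48.8, 38.5, 52.8 and 23.7 CPM in the 4 young libraries and 12.43, 10.8, 11.2 and 11.3 CPM in the 4 old libraries (log2 fold change -1.85, SE 0.23, adjusted p = 0.00278). Pcna, the sliding clamp of DNA polymerases, differed less, with 51.4, 48.2, 56.1 and 42.0 CPM in the 4 young libraries and 29.4, 34.3, 22.6 and 25.2 CPM in the 4 old libraries (log2 fold change -0.84, SE 0.14, adjusted p = 0.00855), but here too the groups did not overlap. Timeless, a component of the replication fork protection complex, was at 10.9 to 18.4 CPM in young and 3.60 to 5.58 CPM in old islets (log2 fold change -1.70, SE 0.23, adjusted p = 0.00388). Its partner Tipin differed by -1.06, and both subunits of ribonucleotide reductase, Rrm1 and Rrm2, by -1.05 and -2.19. Cad, the trifunctional enzyme that starts pyrimidine synthesis, was measured at 147, 136, 152 and 145 CPM in the 4 young libraries and 125, 104, 93.2 and 101 CPM in the 4 old libraries (log2 fold change -0.46, SE 0.10, adjusted p = 0.0231).

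**Figure D1:**
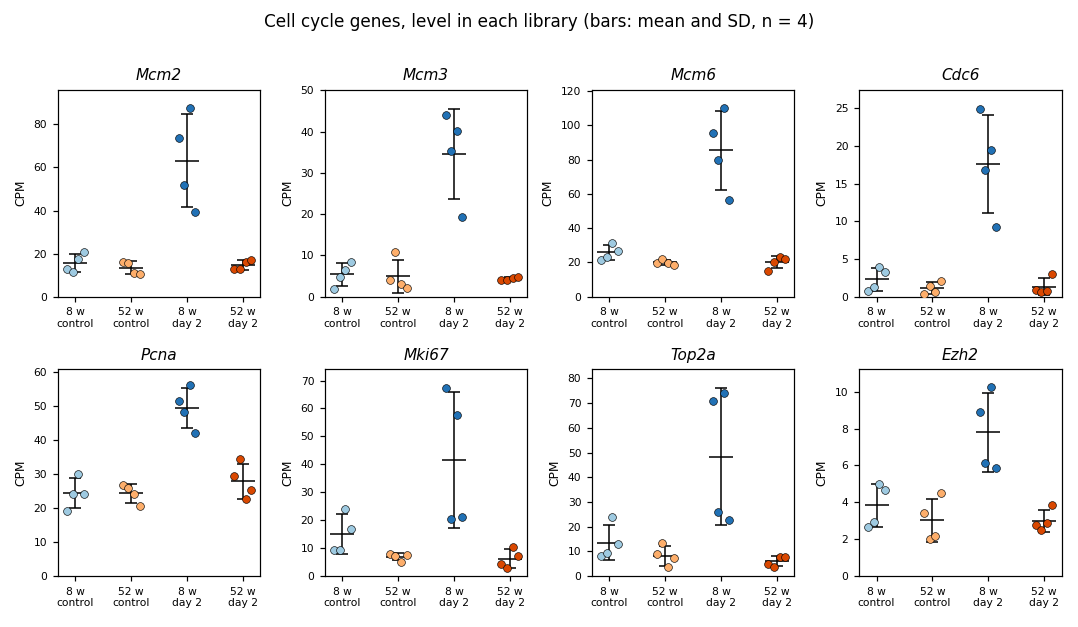
Level in CPM (vertical axes, linear from 0) of 8 cell cycle genes in each library of 4 groups (points), with the mean and SD of 4 libraries (bars). The 4 young day 2 libraries stood above all old day 2 libraries for each gene, for example at 56.2 to 110.3 CPM against 15.1 to 23.0 CPM for Mcm6. In controls the log2 fold change of old against young islets ran from -1.07 for Mki67 to 0.033 for Pcna, and none of these genes was called there.

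Many replication genes are known targets of E2F transcription factors, and short E2F-type words were therefore searched in their promoters as a description. Of the 31 S phase genes that were lower in old islets, 24 had a RefSeq promoter window (250 bases before to 50 bases after the start, build GRCm38.p6). Any of the words TTTGGCGC, TTTCCCGC, TTTGGCGG, TTTCCCGG, TTTCGCGC or TTTGCCGC was present on either strand in 11 of the 24 (45.8%), compared with 1230 of 27025 genes with a window (4.55%). Mcm4, Gins1, Rfc2, Pole, Prim2, Tipin and Dscc1 had no window. Uncalled members of the list were not searched, so the share of 45.8% does not bear on the age difference. Promoters of 4 of the genes with a match upstream of the start are printed as 160 bases that end just before the start, 5′ to 3′ on the gene's strand, and were chosen after the matches were known. Capitals mark the matched words, which overlap each other in Mcm5 and at the first match in Mcm6.
Mcm5, chr8:75109349-75109508, plus strand: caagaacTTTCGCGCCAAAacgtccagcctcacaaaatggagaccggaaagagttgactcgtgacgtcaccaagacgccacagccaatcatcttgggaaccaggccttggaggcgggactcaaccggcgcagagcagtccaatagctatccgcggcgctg
Mcm6, chr1:128359706-128359865, minus strand: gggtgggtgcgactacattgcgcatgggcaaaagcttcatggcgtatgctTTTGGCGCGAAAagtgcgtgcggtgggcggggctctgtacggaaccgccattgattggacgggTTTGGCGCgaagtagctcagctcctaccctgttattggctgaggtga
Cdc6, chr11:98907991-98908150, plus strand: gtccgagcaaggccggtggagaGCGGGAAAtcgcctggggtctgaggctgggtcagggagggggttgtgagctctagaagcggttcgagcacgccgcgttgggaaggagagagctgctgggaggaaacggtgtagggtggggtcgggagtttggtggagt
Hells, chr19:38930830-38930989, plus strand: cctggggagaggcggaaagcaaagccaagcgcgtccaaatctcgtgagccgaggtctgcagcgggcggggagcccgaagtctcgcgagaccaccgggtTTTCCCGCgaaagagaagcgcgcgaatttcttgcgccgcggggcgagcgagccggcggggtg
Mcm6 held 3 matches, of which 2 overlapped, and Hells, a chromatin remodeller of replicating cells, held 1 match at 62 bases before the start and differed by -2.83 on the log2 scale. Mcm2, Mcm10, Cdc45, Pcna, Rrm1, Rrm2, Fen1 and Timeless had a window without these letters and were lower in old islets as well.

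Genes of G2 and mitosis were lower as well, with a larger median difference. Of 51 tested members 30 were lower and 0 higher (58.8% called against 9.97% of all genes), all 51 had a negative fold change, and the median was -2.05 (0 higher at an unadjusted p under 0.05 or in DESeq2). The count was 20 within W0054 and 11 to 36 when each library was left out, the lowest without young replicate 3, and it fell to 4 with the numeric code as a random block. Mki67, the proliferation antigen Ki-67, was found at 67.4, 20.4, 57.6 and 21.1 CPM in the 4 young libraries and 4.39, 3.03, 10.5 and 7.08 CPM in the 4 old libraries (log2 fold change -2.73, SE 0.51, adjusted p = 0.0121). Young replicates 1 and 3 were well above young replicates 2 and 4, and all 4 were above the old libraries. Top2a, the topoisomerase that untangles sister chromatids, followed the same order of young libraries, with 70.8, 26.1, 74.1 and 22.5 CPM in the 4 young libraries and 4.82, 3.60, 7.56 and 7.83 CPM in the 4 old libraries (log2 fold change -3.02, SE 0.47, adjusted p = 0.00634). Pbk, a mitotic kinase, had the largest fall among the named genes, from 9.07 to 41.8 CPM to 0.322 to 4.18 CPM (log2 fold change -4.25, SE 0.75, adjusted p = 0.00981). The highest old value of Pbk was that of replicate 4. The kinetochore gene Nuf2 (log2 fold change -3.39, SE 0.70, adjusted p = 0.0178) and the condensin genes Ncaph (log2 fold change -2.99, SE 0.51, adjusted p = 0.00905) and Smc4 (log2 fold change -1.59, SE 0.21, adjusted p = 0.00366) were lower too. Smc4 was measured at 48.8, 32.5, 52.5 and 28.6 CPM in the 4 young libraries and 12.003, 13.6, 15.1 and 13.4 CPM in the 4 old libraries. Prc1, which bundles microtubules of the central spindle, was at 11.6 to 35.5 CPM in young and 3.26 to 4.93 CPM in old islets (log2 fold change -2.38, SE 0.40, adjusted p = 0.00863). In contrast to S phase genes, the mitosis list was already at 1.82 to 2.79 in young controls and 1.11 to 2.19 in old controls (mean log2 CPM), against 2.38 to 4.03 and 0.94 to 2.00 at day 2.

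Among the regulators of G1 and the cyclin-dependent kinase (CDK) inhibitors, 10 of 26 tested members were lower and 1 was higher in old islets. That was 42.3% of the list, against 9.97% of all genes. The lower genes were the D cyclins Ccnd1 and Ccnd2, Ccne1, Cdk2, Cdc25a, the E2F members E2f2, E2f7 and E2f8, the pocket protein gene Rbl1 and the inhibitor Cdkn2c. Ccnd2, the main D cyclin of β-cells, was measured at 919.7, 1244, 1226 and 1176 CPM in the 4 young libraries and 824, 725, 488 and 531 CPM in the 4 old libraries (log2 fold change -0.83, SE 0.16, adjusted p = 0.0119). All old values were below all young values, and old replicates 3 and 4 were the lowest. Ccnd1 was found at 42.5, 49.9, 51.5 and 57.5 CPM in the 4 young libraries and 33.5, 27.1, 22.3 and 23.3 CPM in the 4 old libraries (log2 fold change -0.93, SE 0.13, adjusted p = 0.00428). E2f2, an activator of S phase genes, was at 7.47 to 11.8 CPM in young and 3.43 to 4.50 CPM in old islets (log2 fold change -1.31, SE 0.21, adjusted p = 0.00709), and Rbl1 at 19.5 to 31.6 and 9.89 to 13.5 CPM (log2 fold change -1.04, SE 0.18, adjusted p = 0.00875). E2f7 and E2f8, atypical E2F members that repress transcription, differed by -2.59 and -2.72. The gene that was higher was Cdkn1b, which encodes the inhibitor p27, by 0.73 (adjusted p = 0.0487), which DESeq2 did not call. The count of lower members was 8 within W0054, 4 to 11 when each library was left out, the lowest without young replicate 3, and 4 with the numeric code as a random block.

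Cdkn2a, the locus of the senescence-associated inhibitor p16, had 1, 0, 0 and 2 counts in the young and 0 counts in all 4 old libraries. It was too low for a test, and a count of 0 allows up to 3 counts per library, which is 0.264 to 0.765 CPM at these depths. Of the 19 tested genes of the senescence list, Igfbp3 and Igfbp5 passed the threshold, both higher, which at 10.5% is close to the 9.97% of all genes. Igfbp3, a binding protein of insulin-like growth factors (IGF), was at 94.0, 124, 123 and 99.0 CPM in the 4 young libraries and 271, 253, 214 and 259 CPM in the 4 old libraries (log2 fold change 1.18, SE 0.11, adjusted p = 9.03e-04), whereas Igfbp5 (log2 fold change 0.49, SE 0.13, adjusted p = 0.0423) lost its call when any 1 library was left out. The polycomb and PDGF list had 2 lower and 2 higher members of 17 (23.5% called against 9.97% of all genes). Lower members numbered 0 to 1 when each library was left out. With the numeric code as a random block 0 were called lower and 2 higher. Ezh2, the methyltransferase of polycomb repressive complex 2, was at 8.88, 6.13, 10.3 and 5.87 CPM in the 4 young libraries and 2.79, 2.47, 2.89 and 3.86 CPM in the 4 old libraries (log2 fold change -1.37, SE 0.28, adjusted p = 0.0163), and its cofactor gene Phf19 differed by -1.48 (adjusted p = 0.0479). Ezh2 was called in 6 and Phf19 in 0 of the 8 fits that left out 1 library. Bmi1, a subunit of polycomb repressive complex 1, was higher, with 71.2, 80.2, 85.0 and 87.5 CPM in the 4 young libraries and 129.8, 135, 131 and 127 CPM in the 4 old libraries (log2 fold change 0.69, SE 0.069, adjusted p = 0.00112), and so was Cbx7 of the same complex (log2 fold change 0.71, SE 0.14, adjusted p = 0.0164). Pdgfra, a receptor for platelet-derived growth factor, was at 4.02, 4.09, 3.35 and 3.60 CPM in the 4 young libraries and 1.29, 2.25, 8.12 and 4.93 CPM in the 4 old libraries (adjusted p = 0.881), with the highest and the lowest values both among the old libraries. The DNA damage list of 22 tested genes contained 3 that were lower, among them Rad51ap1 (log2 fold change -3.26, SE 0.59, adjusted p = 0.0108) and Fancd2 (log2 fold change -2.22, SE 0.58, adjusted p = 0.0397), which act in recombination and crosslink repair, and 1 that was higher, Sesn2. In percent, 18.2% of this list was called, against 9.97% of all genes. With the numeric code as a random block 0 were called lower and 1 higher.

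Chaperones and folding enzymes of the ER were lower in old islets. Of 35 tested members of the ATF6 and IRE1 list, 21 were lower and 1 was higher (62.9% called against 9.97% of all genes), with a median log2 fold change of -0.43. The mean log2 CPM of the list was 8.26 to 8.63 in young and 7.98 to 8.13 in old day 2 islets, compared with 7.65 to 8.21 in young and 7.71 to 8.31 in old controls. The count of lower members was 13 within W0054, 8 to 20 when each library was left out, the lowest without old replicate 3, and 14 with the numeric code as a random block. Hspa5 (mm9, chr2:34627490-34632051), the central chaperone BiP of the ER lumen, was measured at 4020.1, 4317, 4008 and 3619 CPM in the 4 young libraries and 2667, 2681, 2104 and 2390.5 CPM in the 4 old libraries (log2 fold change -0.70, SE 0.11, adjusted p = 0.00649). The lowest young value exceeded the highest old value. Creld2, a small ER protein induced by stress, was at 314, 294, 382 and 232 CPM in the 4 young libraries and 137, 139.7, 135 and 137 CPM in the 4 old libraries (log2 fold change -1.16, SE 0.14, adjusted p = 0.00226), with nearly equal values in the old libraries. Sdf2l1 and Dnajb11, both partners of BiP, were at 288 to 422 and 223 to 285 CPM in young and at 143 to 190.4 and 106 to 138 CPM in the old ones, with log2 fold changes of -1.07 (adjusted p = 0.00339) and -0.97 (adjusted p = 0.00184). The remaining lower members ranged from -1.34 for Derl3, which works in ER-associated degradation, to -0.31 for Dnajc10, a disulfide reductase, and they included Manf (-0.58), P4hb (-0.64), Ero1lb (-0.60), Dnajc3 (-0.56) and Hsp90b1 (-0.51). The exception was Ern1, which encodes the sensor IRE1 itself and was higher, with 39.7, 44.8, 51.8 and 47.9 CPM in the 4 young libraries and 79.8, 62.9, 80.7 and 74.8 CPM in the 4 old libraries (log2 fold change 0.70, SE 0.10, adjusted p = 0.0053).

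The ER stress response element (ERSE) is known as the binding sequence of ATF6 with NF-Y and reads CCAAT, 9 bases of any kind and CCACG. It was found on either strand in 6 of the 18 promoter windows available for the 22 called genes of this list (33.3%), compared with 37 of 27025 genes (0.137%). The 6 genes were Hspa5, Hsp90b1, Dnajc3, Creld2, Derl3 and Ero1lb, all lower in old islets, as were 21 of the 22 called genes. Manf, Sec61a1, Sec11c and Ssr2 had no window. The list was drawn up around ATF6 and IRE1, and its uncalled members were not searched. The share of 33.3% therefore describes the list and does not bear on the age difference. The word TGACGTGG, the core of another unfolded protein response element, was in 0 of the 18 windows and in 0.714% of all genes. The windows of Sdf2l1, Dnajb11, P4hb and Ern1 held neither. From these, 4 promoters are shown as 160 bases before the start, with capitals on both ends of the element, which is read on the opposite strand in Creld2 and Derl3. As above, they were chosen after the matches were known.
Hspa5, chr2:34771930-34772089, plus strand: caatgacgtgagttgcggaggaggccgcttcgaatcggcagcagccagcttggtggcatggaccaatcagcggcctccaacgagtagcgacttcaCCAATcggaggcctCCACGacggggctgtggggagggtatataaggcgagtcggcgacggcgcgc
Dnajc3, chr14:118937772-118937931, plus strand: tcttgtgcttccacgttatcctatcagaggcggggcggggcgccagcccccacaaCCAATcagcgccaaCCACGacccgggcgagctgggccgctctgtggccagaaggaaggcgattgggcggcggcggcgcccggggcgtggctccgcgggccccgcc
Creld2, chr15:88819486-88819645, plus strand: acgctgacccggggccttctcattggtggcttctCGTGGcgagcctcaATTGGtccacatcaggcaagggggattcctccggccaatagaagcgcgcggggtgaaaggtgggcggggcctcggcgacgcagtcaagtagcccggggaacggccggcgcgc
Derl3, chr10:75893238-75893397, plus strand: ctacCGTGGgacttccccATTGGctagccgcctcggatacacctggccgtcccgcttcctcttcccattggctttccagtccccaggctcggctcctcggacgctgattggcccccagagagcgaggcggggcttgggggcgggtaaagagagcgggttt
The element began 65 bases before the start in Hspa5, and the fold changes of these 4 genes ranged from -0.56 to -1.34.

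Targets of the PERK and ATF4 branch differed in the opposite direction. Of 25 tested targets, 9 were higher and 0 lower in old islets (1 lower at an unadjusted p under 0.05 and 0 in DESeq2), and the median log2 fold change was 0.32. In percent, 36% of the list was called, against 9.97% of all genes. Sesn2, a stress-induced inhibitor of mTORC1, was at 31.7, 35.3, 33.1 and 41.0 CPM in the 4 young libraries and 56.7, 66.9, 73.0 and 66.2 CPM in the 4 old libraries (log2 fold change 0.90, SE 0.11, adjusted p = 0.00257). Asns, the asparagine synthetase, was at 111, 155, 166 and 155 CPM in the 4 young libraries and 192, 211, 202 and 191 CPM in the 4 old libraries (log2 fold change 0.44, SE 0.094, adjusted p = 0.019), and Vldlr and Eif4ebp1 differed by 0.50 (adjusted p = 0.0122) and 0.69 (adjusted p = 0.021). The other members past the threshold were the pseudokinase gene Trib3 (1.94), the glutathione-degrading enzyme gene Chac1 (1.38), Cebpb (0.47), the amino acid transporter gene Slc7a5 (0.47) and the seryl-tRNA synthetase gene Sars (0.34). This group was less stable than the chaperones, since 3 members were called within W0054, 2 to 6 when each library was left out, the lowest without old replicate 3, and 3 with the numeric code as a random block. Sesn2 was called in each of the 8 fits that left out 1 library, Vldlr in 8, Asns in 5 and Eif4ebp1 in 2.

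Nupr1, Mt2 and Mt1 were among the largest rises of genes with a mean log2 CPM over 1. Nupr1 (mm9, chr7:133766763-133770524), a stress-induced nuclear protein, was measured at 15.9, 17.0, 24.01 and 19.3 CPM in the 4 young libraries and 172, 202, 140.0 and 210.4 CPM in the 4 old libraries (log2 fold change 3.24, SE 0.17, adjusted p = 6.03e-05), and it had the smallest p of all genes. The gap between the groups exceeded the spread within either. The metallothioneins Mt1 and Mt2, which bind zinc and copper, followed. Mt1 was at 23.9, 52.1, 37.6 and 43.1 CPM in the 4 young libraries and 88.4, 179.6, 434 and 339.6 CPM in the 4 old libraries (log2 fold change 2.75, SE 0.46, adjusted p = 0.00827) and Mt2 at 1.90, 6.30, 4.24 and 4.27 CPM in the 4 young libraries and 10.9, 22.9, 58.6 and 44.8 CPM in the 4 old libraries (log2 fold change 3.04, SE 0.52, adjusted p = 0.00923), and in both the old libraries of run W0102 (replicates 3 and 4) were the highest. In the antioxidant list, Hmox1 (0.86), Nfe2l2 (0.50), Sod2 (0.37) and Txnrd1 (0.28) were also higher, and Gpx2, Prdx4 and Txn1 were lower, out of 23 tested. In percent, 39.1% of this list was called, against 9.97% of all genes. With the numeric code as a random block 1 was called higher and 3 lower. Gpx2, a glutathione peroxidase, was at 40.6, 53.5, 58.5 and 53.6 CPM in the 4 young libraries and 8.57, 16.7, 13.1 and 14.7 CPM in the 4 old libraries (log2 fold change -1.95, SE 0.19, adjusted p = 9.90e-04), whereas Prdx4, the peroxiredoxin of the ER, was at 19.9 to 22.8 and 10.8 to 14.6 CPM (log2 fold change -0.65, SE 0.11, adjusted p = 0.00994). Fkbp5, a cochaperone of the glucocorticoid receptor and itself a well-known glucocorticoid target, was at 55.4, 54.5, 53.7 and 70.4 CPM in the 4 young libraries and 113, 128, 137 and 138 CPM in the 4 old libraries (log2 fold change 1.14, SE 0.12, adjusted p = 0.00148).

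**Figure D2:**
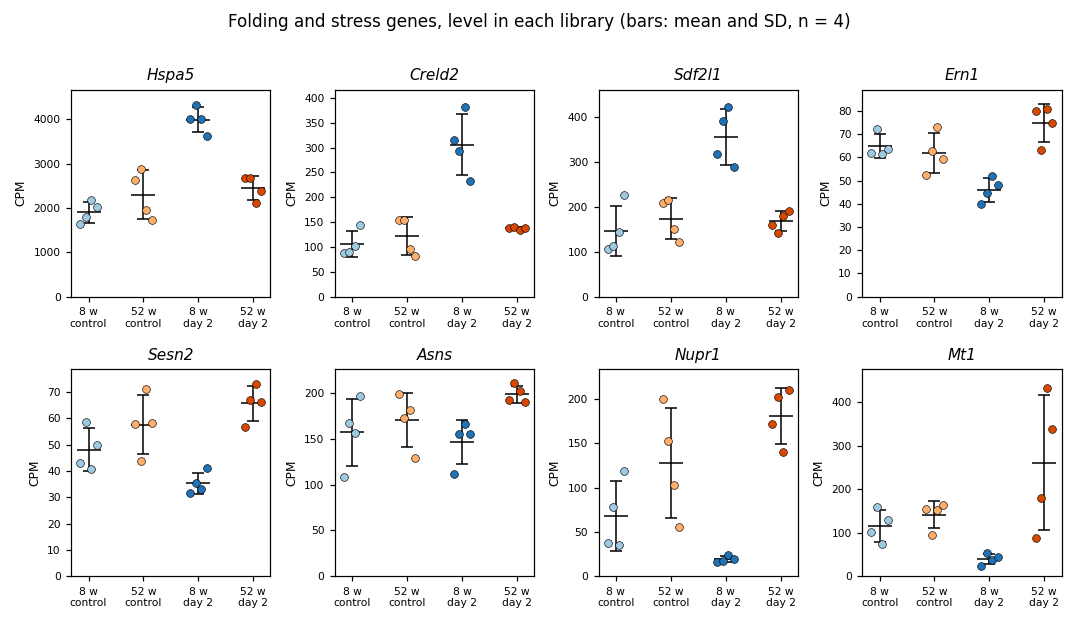
Level in CPM (vertical axes, linear from 0) of 8 folding and stress genes in each library of 4 groups (points), with the mean and SD of 4 libraries (bars). Hspa5, Creld2 and Sdf2l1 were lower in old than in young day 2 islets, for Hspa5 at 2104 to 2681 against 3619 to 4317 CPM, and Ern1, Sesn2, Asns, Nupr1 and Mt1 were higher, for Nupr1 at 140.0 to 210.4 against 15.9 to 24.01 CPM.

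Of 37 tested genes of the interferon response, 8 were higher in old islets, 0 were lower (21.6% called against 9.97% of all genes), and 35 had a positive fold change (median 0.39, against 50% positive over all genes). B2m, the light chain of class I molecules, was at 20.9, 27.9, 30.4 and 38.3 CPM in the 4 young libraries and 74.7, 71.1, 76.0 and 62.8 CPM in the 4 old libraries (log2 fold change 1.27, SE 0.14, adjusted p = 0.00148). The lowest old library was well above the highest young library. H2-K1, a class I heavy chain gene, was at 249, 364, 308 and 304 CPM in the 4 young libraries and 601, 664, 478 and 399 CPM in the 4 old libraries (log2 fold change 0.80, SE 0.14, adjusted p = 0.0105). Reads of class I genes can be shared among near-identical copies, so its value is less certain. The immunoproteasome genes Psmb8 (log2 fold change 0.72, SE 0.14, adjusted p = 0.0123) and Psmb10 (0.67), the peptide transporter genes Tap1 (0.55) and Tap2 (0.53) and the guanylate-binding protein gene Gbp6 (1.51) were also called. The count was 6 within W0054, 3 to 8 when each library was left out, the lowest without old replicate 2, and 3 with the numeric code as a random block.

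Among macrophage and myeloid markers the share was larger. Of 24 tested markers, 12 were higher and 0 lower (50% called against 9.97% of all genes), and the median log2 fold change was 0.91. Their summed level was 236 to 317 CPM in the young and 415 to 550 CPM in the old day 2 libraries, and 279 to 349 CPM and 444 to 624.2 CPM in the corresponding controls. Ctss, a lysosomal protease of antigen-presenting cells, was at 15.005, 21.3, 19.8 and 25.9 CPM in the 4 young libraries and 49.2, 46.2, 49.1 and 32.5 CPM in the 4 old libraries (log2 fold change 1.10, SE 0.16, adjusted p = 0.00494). The class II genes H2-Ab1 and H2-Aa differed by 1.15 and 1.11 (both adjusted p = 0.00334), and H2-Ab1 was at 38.7, 45.3, 41.5 and 52.8 CPM in the 4 young libraries and 109, 122, 98.8 and 69.1 CPM in the 4 old libraries. The complement gene C1qb was at 14.4, 14.5, 12.5 and 19.1 CPM in the 4 young libraries and 36.1, 33.6, 33.8 and 23.6 CPM in the 4 old libraries (log2 fold change 1.06, SE 0.16, adjusted p = 0.00637). Within the old group, replicate 4 was the lowest for all 4 of these genes. Ptprc, Tyrobp, Csf1r, Cx3cr1, Itgax, Laptm5, C1qc and H2-Eb1 were called as well, between 0.86 and 1.36. Every tested marker had counts in all 8 libraries, and Cd74, Clec4d, S100a8 and S100a9 were not among the tested genes. The count was 8 within W0054, 7 to 11 when each library was left out, the lowest without old replicate 1, and 7 with the numeric code as a random block. The part of these cells in the interferon response genes was not tested. Of 21 tested inflammation genes, 5 were higher and 0 lower (1 higher with the numeric code as a random block). That was 23.8% of the list, against 9.97% of all genes. The 5 were the NF-κB subunit gene Relb (log2 fold change 1.09, SE 0.20, adjusted p = 0.0113), Socs3 (log2 fold change 0.81, SE 0.19, adjusted p = 0.0283), the oncostatin M receptor gene Osmr (log2 fold change 0.76, SE 0.18, adjusted p = 0.0276), Il1r1 (log2 fold change 0.56, SE 0.14, adjusted p = 0.0367) and Cebpb. Relb was called in all 8 fits that left out 1 library, Socs3 in 3, Osmr in 2 and Il1r1 in 1.

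**Figure D3:**
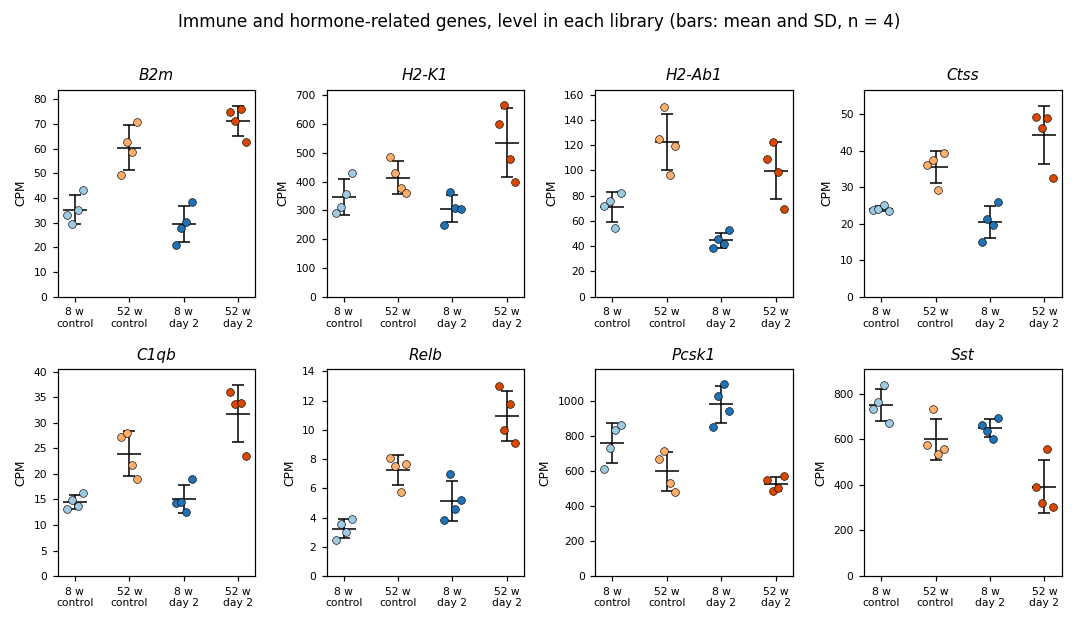
Level in CPM (vertical axes, linear from 0) of 6 immune genes, Pcsk1 and Sst in each library of 4 groups (points), with the mean and SD of 4 libraries (bars). At day 2 B2m was at 62.8 to 76.0 CPM in old against 20.9 to 38.3 CPM in young islets, and Pcsk1 at 485 to 571 against 853 to 1098 CPM.

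The identity genes of β-cells differed little between ages. Ins2 was at 63205, 82224, 90050.2 and 88000.0 CPM in the 4 young libraries and 72811, 73992, 88912 and 80827 CPM in the 4 old libraries (log2 fold change -0.025, SE 0.12, adjusted p = 0.925), and Ins1 at 7184, 10038, 11207 and 10860.5 CPM in the 4 young libraries and 11827, 11350.1, 14528 and 13071 CPM in the 4 old libraries (log2 fold change 0.38, SE 0.14, adjusted p = 0.111). Although all old values of Ins1 were above all young values, the difference did not pass the threshold. Pdx1, the homeobox factor required for the pancreas and for insulin transcription, was at 21.1 to 36.0 CPM in young and 27.1 to 34.9 CPM in old islets (log2 fold change -0.0098, SE 0.13, adjusted p = 0.976). Mafa, the activator of insulin genes in mature β-cells, was at 62.6, 102.2, 72.6 and 70.7 CPM in the 4 young libraries and 51.6, 42.8, 70.9 and 60.7 CPM in the 4 old libraries (log2 fold change -0.44, SE 0.18, adjusted p = 0.153), with overlapping groups. Of 23 tested β-cell transcription factors, 2 were higher, among them Rfx6 (log2 fold change 0.56, SE 0.090, adjusted p = 0.0072), and 0 were lower. That was 8.70% of the list, against 9.97% of all genes, and 1 was called higher with the numeric code as a random block. Rfx6 was at 114, 122, 137 and 141 CPM in the 4 young libraries and 198, 195, 208 and 159 CPM in the 4 old libraries and was called in all 8 fits that left out 1 library.

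Within insulin production and secretion, 4 of 38 tested genes were lower and 3 were higher (18.4% called against 9.97% of all genes). The higher calls numbered 0 to 2 when each library was left out and 0 with the numeric code as a random block, where 4 lower ones were called. Pcsk1 (mm9, chr13:75227274-75269946), the prohormone convertase PC1/3 that cleaves proinsulin, was at 853, 1031, 1098 and 946 CPM in the 4 young libraries and 548, 485, 506 and 571 CPM in the 4 old libraries (log2 fold change -0.89, SE 0.098, adjusted p = 0.0016). All young libraries were above all old libraries by a wide margin. Granule and fusion genes, 3 in number, were lower by less, namely the SNARE gene Snap25 (log2 fold change -0.45, SE 0.076, adjusted p = 0.0086), the granule membrane protein gene Ptprn (log2 fold change -0.50, SE 0.094, adjusted p = 0.0122) and the Rab27 effector gene Sytl4 (log2 fold change -0.53, SE 0.100, adjusted p = 0.0124). Chga (0.45) and Syt7 (0.38) were among the higher genes. Among the markers of other endocrine cells, 1 of 17 was called (5.88%, against 9.97% of all genes). Sst, the hormone of δ-cells, was at 664, 634, 601 and 692 CPM in the 4 young libraries and 389, 319, 557 and 304 CPM in the 4 old libraries (log2 fold change -0.73, SE 0.18, adjusted p = 0.0323), and it was called in 1 of the 8 fits that left out 1 library.

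Growth factor lists had called genes in both directions. Of 13 tested genes of the prolactin receptor and serotonin list, 2 were lower and 2 higher (30.8% called against 9.97% of all genes). Lower calls numbered 1 and higher calls 0 with the numeric code as a random block. Prlr, the prolactin receptor, was at 394, 496, 652 and 466 CPM in the 4 young libraries and 332, 229, 278 and 294 CPM in the 4 old libraries (log2 fold change -0.82, SE 0.15, adjusted p = 0.0112), with every young library above every old one, and Slc18a2, the vesicular monoamine transporter, was also lower (log2 fold change -0.74, SE 0.18, adjusted p = 0.0297). The transducers downstream of the receptor, Stat5a (log2 fold change 0.49, SE 0.12, adjusted p = 0.0331) and Stat5b (log2 fold change 0.36, SE 0.094, adjusted p = 0.0411), were higher. Prlr was called in all 8 fits that left out 1 library, but Slc18a2 and Stat5a in 2 each and Stat5b in 1. In the insulin and IGF list, 3 of 19 were higher (Igfbp3, Igfbp5 and Foxo1, the last by 0.42) and 1 was lower (21.1% called against 9.97% of all genes). The lower gene was Igf2bp2, which encodes an RNA-binding protein, with 9.30, 9.03, 8.27 and 12.41 CPM in the 4 young libraries and 1.07, 0.562, 1.93 and 1.29 CPM in the 4 old libraries (log2 fold change -2.97, SE 0.35, adjusted p = 0.00223). Every old value was far below the lowest young value. Bmpr1b, a receptor of bone morphogenetic proteins, gave one of the largest rises, with 3.80, 5.79, 3.24 and 6.94 CPM in the 4 young libraries and 29.8, 32.1, 37.6 and 30.6 CPM in the 4 old libraries (log2 fold change 2.72, SE 0.22, adjusted p = 8.09e-04).

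Other genes with the largest differences were of low abundance. Fut1, a fucosyltransferase gene, was at 0.341 to 1.27 and 3.75 to 5.28 CPM (log2 fold change 2.65, SE 0.44, adjusted p = 0.00802), and Evc, a component of the primary cilium in Hedgehog signalling, at 0.534 to 2.32 and 5.95 to 10.5 CPM (log2 fold change 2.47, SE 0.42, adjusted p = 0.00865). Pcp4, a modulator of calmodulin, was at 2.75, 3.07, 4.24 and 2.80 CPM in the 4 young libraries and 14.0, 20.2, 14.4 and 9.86 CPM in the 4 old libraries (log2 fold change 2.16, SE 0.24, adjusted p = 0.00152). The solute carrier gene Slc35f4, the kinase gene Stk33 and C77370 differed by 2.31, 2.15 and 2.20, all from levels below 2 CPM in every young library. Among the falls, Tac1, the precursor of substance P, was at 2.32, 9.03, 4.36 and 12.8 CPM in the 4 young libraries and 0.429, 0.674, 1.29 and 0.965 CPM in the 4 old libraries (log2 fold change -3.03, SE 0.55, adjusted p = 0.0108), Fignl1, a recombination factor, at 7.60 to 24.9 and 0.857 to 2.57 CPM (log2 fold change -3.34, SE 0.44, adjusted p = 0.00334) and D430020J02Rik at 2.80 to 5.96 and 0.112 to 0.751 CPM (log2 fold change -3.53, SE 0.51, adjusted p = 0.0051).

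Of 43 tested matrix genes, 5 were lower and 0 higher, which at 11.6% is close to the 9.97% of all genes, and 2 were lower with the numeric code as a random block. All 5 encode basement membrane or matricellular proteins, with Col4a2 at 120.5, 138, 130.0 and 138 CPM in the 4 young libraries and 81.1, 78.3, 85.5 and 71.8 CPM in the 4 old libraries (log2 fold change -0.74, SE 0.071, adjusted p = 0.00102), Col4a1 at 227 to 270.3 and 166 to 203 CPM (log2 fold change -0.48, SE 0.079, adjusted p = 0.00804), and Lamb1, Sparc and Sparcl1 at -0.56, -0.62 and -0.35 on the log2 scale. The median of the list was -0.20. Within W0054 the count of lower matrix genes was 13, and the mean log2 CPM of the list was 3.10 and 3.25 in old replicates 1 and 2 but 4.35 and 3.95 in replicates 3 and 4, against 3.76 to 4.18 in young islets. Fibroblast markers showed the same division of the old libraries, with a summed level of 207 and 233 CPM in replicates 1 and 2 and of 603 and 374 CPM in replicates 3 and 4 (299 to 430 CPM in young islets). Of 17 endothelial markers, 4 were higher and 0 lower (2 higher with the numeric code as a random block). That was 23.5% of the list, against 9.97% of all genes. All 17 had a positive fold change, against 50% over all genes. The list median was 0.33 at day 2 and 0.44 in controls, where 2 markers were called higher in old islets. Esm1, a secreted proteoglycan of endothelial tip cells, was at 17.3, 25.4, 24.3 and 25.3 CPM in the 4 young libraries and 55.3, 46.98, 40.8 and 44.5 CPM in the 4 old libraries (log2 fold change 1.02, SE 0.12, adjusted p = 0.00234). The VEGF receptor gene Flt1 (log2 fold change 0.63, SE 0.12, adjusted p = 0.0119), Ptprb (log2 fold change 0.68, SE 0.16, adjusted p = 0.0276) and Sox18 (log2 fold change 0.78, SE 0.17, adjusted p = 0.0218) completed the 4, and 4 were also called within W0054.

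Exocrine transcripts varied widely among libraries of the same age. Of 26 tested acinar markers 0 passed the threshold in edgeR (12 were higher at an unadjusted p under 0.05, and DESeq2 called 1), although the median log2 fold change was 2.28. Other settings called up to 12 acinar markers higher, with the percentage of reads within genes as a covariate, or up to 4 lower, with the acinar covariate. Amylase gene Amy2a5 was at 3249, 3116, 8729.9 and 768 CPM in the 4 young libraries and 1693, 3485, 4944 and 20774 CPM in the 4 old libraries (log2 fold change 1.02, SE 0.83, adjusted p = 0.488), with a single old library, replicate 4, far above the others. The regenerating (Reg) family, which encodes secreted lectins of acinar and injured islet cells, varied in parallel. Reg3a was at 1.90, 3.58, 14.5 and 1.87 CPM in the 4 young libraries and 5.25, 5.73, 32.8 and 74.1 CPM in the 4 old libraries (log2 fold change 2.41, SE 0.94, adjusted p = 0.14) and Reg3g at 3.17, 5.28, 22.8 and 3.60 CPM in the 4 young libraries and 1.5004, 14.2, 54.02 and 115 CPM in the 4 old libraries (log2 fold change 2.39, SE 1.04, adjusted p = 0.18). Reg1 and Reg3b gave 1.68 and 2.36, with 0 of 6 members past the threshold in edgeR (4 at an unadjusted p under 0.05, and 1 in DESeq2). Within W0054 the fold changes of Reg1, Reg3a, Reg3b and Reg3g were negative (given with the dependence on processing). Ductal markers gave 0 calls of 15 in edgeR (3 higher and 1 lower at an unadjusted p under 0.05, and 1 higher in DESeq2), and Krt7 and Krt18 were at 191 to 263 and 168 to 227 CPM in young and 212 to 316 and 119.9 to 189 CPM in old islets.

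Metabolic pathways changed little as groups. Of 46 tested genes of the mitochondrial respiratory chain, 1 was higher (Cox6a1, log2 fold change 0.38, SE 0.10, adjusted p = 0.0428) and 1 lower (Cycs, log2 fold change -0.55, SE 0.11, adjusted p = 0.017), and of 22 genes of glycolysis and hypoxia 2 were higher (4.35% and 9.09% called, against 9.97% of all genes). Eno2, the neuronal and endocrine enolase, was at 25.6, 37.5, 37.4 and 43.8 CPM in the 4 young libraries and 70.5, 71.7, 66.5 and 61.3 CPM in the 4 old libraries (log2 fold change 0.90, SE 0.12, adjusted p = 0.00332), and Bnip3, a receptor of mitophagy, differed by 0.44 (adjusted p = 0.0456) with overlapping groups. In cholesterol and fatty acid synthesis, 3 of 26 were lower and 0 higher, which at 11.5% is close to the 9.97% of all genes. With the numeric code as a random block 1 was called lower. Fads2, the desaturase that starts synthesis of long polyunsaturated fatty acids, was at 18.6, 21.0, 16.6 and 18.4 CPM in the 4 young libraries and 5.89, 5.73, 7.56 and 7.93 CPM in the 4 old libraries (log2 fold change -1.45, SE 0.17, adjusted p = 0.00226). The neighbouring Fads1 (log2 fold change -0.37, SE 0.093, adjusted p = 0.0369) and the sterol desaturase gene Sc5d (log2 fold change -0.44, SE 0.10, adjusted p = 0.0297) were also called, but only in 1 and 2 of the 8 fits that left out 1 library.

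**Figure D4:**
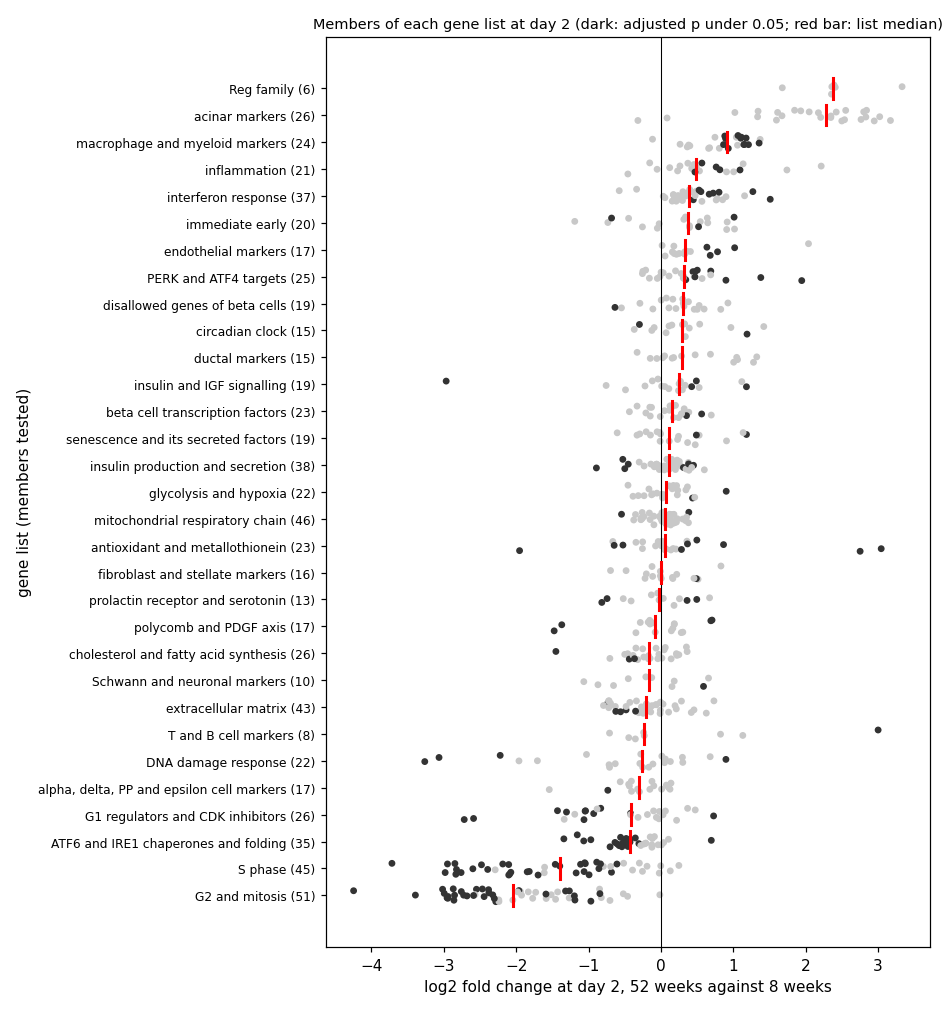
Log2 fold change at day 2 (horizontal axis, positive values higher in old islets) of each tested member (points, dark where the adjusted p was under 0.05) of 31 gene lists (rows, number of members tested in parentheses), with the list median as a red bar. The medians ran from -2.05 for G2 and mitosis and -1.40 for S phase to 2.28 for acinar markers and 2.38 for the Reg family, whose members were all uncalled.

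To ask which of these differences were already present without operation, the age difference was fitted in the 8 control libraries. These share no library with the day 2 groups but do share the division by run label. Old control replicates 3 and 4 carried W0102 and all young controls W0054. The part of the run label in age differences seen at both stages was not tested. There 234 of 13367 genes (1.75%) differed, 116 higher (0.868%) and 118 lower (0.883%) in old islets. Of the 755 genes higher at day 2 that were tested in both, 627 (83.0%) had a positive fold change in controls, compared with 56.3% of all genes, and 69 were called higher there, which is 9.14% of the day 2 genes and 59.5% of the control genes. Of the 609 genes lower at day 2, 447 (73.4%) were lower in controls whatever their p, and 25 were called lower, which is 4.11% of the day 2 genes and 21.2% of the control genes. The median control fold change was 0.24 for the higher and -0.17 for the lower genes, against 0.63 and -0.59 at day 2. These genes were selected by the day 2 test, which enlarges their day 2 medians but not their control medians.

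A test of whether the age difference at day 2 differed from that in controls, in one fit of the 16 libraries, called 105 of 14705 genes (0.714%), 64 with a more positive (0.435%) and 41 with a more negative (0.279%) difference at day 2. Of the genes called at day 2, 77 were among them, 41 of the higher and 36 of the lower. This test holds the same 8 day 2 libraries that gave those calls, so the overlap is partly built in and is no independent evidence. This count rested on single libraries and was lowest (8) after removal of replicate 2 and highest (139) after removal of replicate 4 of the young day 2 group. With the numeric code as a random block only 4 genes in all were called. The S phase list held 10 of the negative calls, and its median was -0.07 in controls against -1.40 at day 2. Mcm6 differed by -0.33 in controls, and the age difference at day 2 minus that in controls was -1.75 (adjusted p = 0.0118), called in all 16 fits that left out 1 library. For Mcm3 the 2 differences were -0.11 and -2.98 (difference -2.85 (adjusted p = 0.0492)), for Timeless 0.41 and -1.70 (difference -2.09 (adjusted p = 0.0204)) and for Cad 0.61 and -0.46 (difference -1.06 (adjusted p = 0.0243)). The mitosis list held 0 such calls by edgeR (20 at an unadjusted p under 0.05), with a median of -0.39 in controls. For Mki67 the difference was -1.64 (adjusted p = 0.28) and did not pass.

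Folding genes behaved like S phase genes, with a control median of 0.22 against -0.43 at day 2. Hspa5 differed by 0.30 in controls (difference -0.996 (adjusted p = 0.0403)) and Creld2 by 0.22 (difference -1.36 (adjusted p = 0.0375)), whereas Ern1 went from -0.027 to 0.70 (difference 0.73 (adjusted p = 0.0413)). Hspa5 kept this call in 4, Creld2 in 5 and Ern1 in 1 of the 16 fits that left out 1 library. Fkbp5 was lower in old controls (-0.70, adjusted p = 0.0459) and higher at day 2, a difference of 1.85 (adjusted p = 5.04e-04) that was called in all 16 fits. The same held for the small GTPase gene Rab31 (-0.41 in controls, 0.58 at day 2, difference 1.004 (adjusted p = 5.04e-04)) and, without a called control difference, for the glycosyltransferase gene Galnt18 (-0.30 and 1.37, difference 1.68 (adjusted p = 0.00212)). Mafa was the only β-cell transcription factor with such a call (0.67 in controls and -0.44 at day 2, difference -1.10 (adjusted p = 0.0498)), and it was lost whichever of the 16 libraries was left out.

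For other genes an age difference was called at both stages. The macrophage markers had a control median of 0.82 against 0.91 at day 2, with 6 called in controls and 0 called for a difference between stages. B2m differed by 0.82 in controls and 1.27 at day 2 (difference 0.46 (adjusted p = 0.415)), H2-Ab1 by 0.82 and 1.15, Bmi1 by 0.64 and 0.69, Bmpr1b by 1.95 and 2.72, and Igf2bp2 by -2.45 and -2.97. All 5 were called in both comparisons. Ctss differed by 0.61 and 1.10, H2-K1 by 0.29 and 0.80, and Il1r1 by -0.13 and 0.56, and of these only Ctss was called in controls. None of these differences between stages passed the test, which does not show that they were equal. Nupr1 differed by 0.93 in controls (adjusted p = 0.324), but the difference between stages, 2.32 (adjusted p = 0.0539), did not pass, and neither did that of Mt1, 2.41 (adjusted p = 0.0539). Acinar markers were lower in old than in young controls (16 of 26 called, median -2.80). At day 2, where 0 were called, the median was positive, but the fold change of Amy2a5 was negative within W0054 and without old replicate 4.

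**Figure D5:**
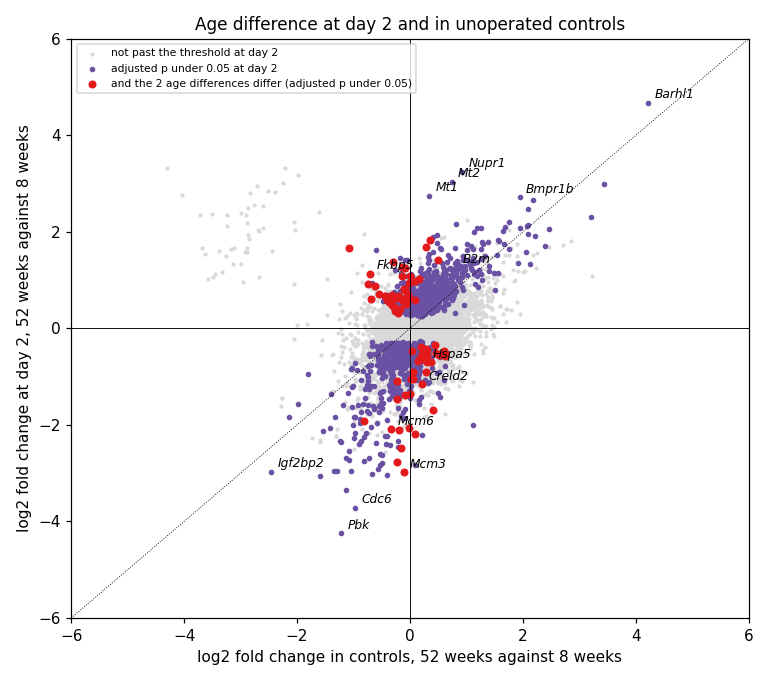
Log2 fold change of old against young islets at day 2 (vertical axis) and in unoperated controls (horizontal axis) for 13291 genes tested in both, with genes called at day 2 in purple and those whose age differences also differed between stages in red. The dotted line marks equal values. Bmpr1b, B2m and Igf2bp2 lay near the line, Mcm3, Mcm6 and Creld2 far below it, and the grey points at the upper left include the acinar markers.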

How the data were processed

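Whole-islet total RNA of the 24 libraries had been amplified with the SMARTer Ultra Low kit and sequenced as single reads. Counting is not stated to use strand, so a gene and an overlapping antisense gene cannot be told apart. According to the deposited file headers and the submitters' notes, the authors trimmed reads (Trimmomatic 0.36), aligned them with TopHat2 2.1.1 to mm9 and counted uniquely mapped reads per RefSeq gene with rpkmforgenes; the study's methods name other tools. The deposited files hold counts and RPKM for 22197 features, without replicate pooling. The counts were analysed with edgeR 4.0.16 (TMM scaling, filterByExpr, quasi-likelihood F test, Benjamini-Hochberg adjustment, threshold 0.05) in R 4.3.3, on the 8 day 2 libraries with 4 in each group. The age difference in controls used the 8 control libraries, and the difference between both age differences used the 16 libraries of the 4 groups. Rows with joined (1458) or repeated (441) names were tested but not named. DESeq2 1.42.0 and limma 3.58.1 on log2(RPKM + 1) of the deposited RPKM values, where a fold change understates that of low genes, served as alternatives. Single shares were compared by exact permutation tests, in which 4 against 4 cannot go below p = 0.0286. The fitting steps were tested on simulated data.

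Named genes were 15 fixed genes, the 10 largest rises and falls among called genes whose groups were fully separated (mean log2 CPM over 1), up to 4 called members per list (2 uncalled ones if none was called) and 3 genes per direction from the difference between stages. Other list members are named to complete a count, and some results are not reported here. The members and the 32 gene lists were chosen with earlier results of these data known, and some genes had been singled out by the study on these same libraries, so list counts are no independent evidence. Lists were described by counts and medians without a test. Gene positions are from GENCODE vM1 on mm9, and promoters from RefSeq (GRCm38.p6). No 2 libraries of a group were identical within counting noise. Intervals and limits for a count of 0 cover counting error only.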

Additional observations from a re-analysis of the deposited data

Results flagged for a closer look

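In groups of 4 libraries, 302 values (library measures, list levels and named genes in each day 2 group) were checked for 1 library far from the other 3, and 24 (7.95%) were set apart, where chance gives about 1 in 20. The part of depth or run label in them was not tested. Young replicate 1, the shallowest library, stood apart with the lowest mean log2 CPM of insulin production and secretion (7.85) and of the antioxidant list (5.06), the highest mean log2 CPM of inflammation (3.03), the lowest Esm1 (17.3 CPM) and Sytl4 (254 CPM) and the highest Stk33 (1.90 CPM). Young replicate 3 had the highest Reg3a (14.5 CPM), Reg3b (101 CPM), Reg3g (22.8 CPM) and C77370 (1.23 CPM). Young replicate 4 had the highest Fkbp5 (70.4 CPM), which was still below every old value, and the lowest D430020J02Rik (2.80 CPM). Old replicate 4 had the highest Amy2a5 (20774 CPM), Amy2b (7813 CPM), Cdc6 (3.002 CPM) and Pbk (4.18 CPM) and the lowest Stat5a (19.9 CPM). Old replicate 3 had the highest total (11349494 counts) and Cbx7 (92.5 CPM), and the lowest Flt1 (45.7 CPM) and mean log2 CPM of the folding list (7.98). Old replicate 1 was highest for E2f2 (4.50 CPM) and Slc35f4 (6.75 CPM), and old replicate 2 was highest for Fut1 (5.28 CPM).

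For 17 named genes the age difference at day 2 differed from that in controls (edgeR, adjusted p under 0.05 in 16 libraries), given here as the day 2 minus the control log2 fold change. It was negative for the replication and cell cycle genes Mcm2 (-1.91), Mcm3 (-2.85), Mcm5 (-2.51), Mcm6 (-1.75), Timeless (-2.09) and Rbl1 (-1.08), for Cad (-1.06), for the chaperone genes Hspa5 (-0.996) and Creld2 (-1.36), and for Cycs (-0.83) and Mafa (-1.10). It was positive for Fkbp5 (1.85), Galnt18 (1.68), Rab31 (1.004), Ern1 (0.73), Bnip3 (0.73) and Reg1 (5.35). For Reg1 the larger part lay in controls (log2 fold change -3.68, edgeR adjusted p = 0.0119). Its day 2 value of 1.68 was not called and was -0.64 within W0054, and the call for Reg1 was kept in 1 of the 16 fits that left out 1 library. Only Fkbp5, Galnt18, Rab31 and Mcm6 kept the call in all 16 fits that left out 1 library, and Timeless kept it in 12, Cad in 10, Mcm2 in 7 and the others in at most 6.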

How the results depend on the processing

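The 1394 day 2 calls kept their sign in every alternative in which they were tested, but their number varied. It was 247 with the replicate block (148 higher, 99 lower), 568 with the numeric code shared by pairs of libraries as a random block (302 and 266), 902 within run W0054 (381 lower), 2591 with a covariate for the percentage of reads within genes (1321 and 1270) and 349 at a fold of at least 2 (164 and 185). All 24 libraries in one fit gave 1144 higher genes, DESeq2 1006 lower genes and an acinar covariate 959 lower genes. The cause of these shifts was not tested. Leaving out 1 library gave 502 to 1251 calls (281 to 658 higher, 221 to 611 lower), with 811, 860 and 524 without old replicate 1, 2 or 3 and 694 and 502 without young replicate 2 or 3. Upper quartile scaling, RLE scaling, the filters, RPKM values and single-named rows stayed within 1.5 times of the number of changed genes, and 48.5% to 59.9% of calls were higher in old islets across settings.

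The 105 genes whose age difference differed from that in controls became 177 (upper quartile), 428 (DESeq2), 27 (no filter), 226 (at least 10 counts in every library), 663 (RPKM), 248 (all libraries), 17 (replicate block), 344 (run label), 4 (numeric code), 535 (percentage of reads within genes), 51 (fold of at least 2) and 8 to 139 (1 library left out).

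Same-numbered old and young libraries correlated at -0.50, 0.18, -0.03 and -0.66, so the numbers do not pair them and a call lost under the replicate block is no weaker effect. With this block, 15 S phase, 5 mitosis and 4 folding genes were called lower and 1 PERK and ATF4 target, 2 interferon response genes and 3 macrophage markers higher.

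Of 100 named genes called, 62 were called in all 8 fits that left out 1 library and 33 in those and all 14 other settings, and 0 changed sign. Among uncalled genes, log2 fold changes turned negative with the run label as a covariate and within W0054 for Amy2a5 (-0.64 and -0.63), Amy2b (-0.76 and -0.75), Pdgfra (-1.12 and -1.11), Reg1 (-0.65 and -0.64), Reg3a (-0.11 and -0.047), Reg3b (-0.25 and -0.23) and Reg3g (-0.27 and -0.21), and with the acinar covariate for Amy2a5 (-0.37), Pdgfra (-0.47) and Reg1 (-0.15). Pdgfra was also negative on RPKM (-0.0027), with the replicate block (-0.12) and with the numeric code (-0.016), and Pdx1 was positive without a filter (0.0072) and with the replicate block (0.0057). Leaving out 1 library gave -0.26 to 1.70 for Amy2a5, -0.11 to 0.025 for Ins2, -0.40 to 0.47 for Pdgfra and -0.13 to 0.054 for Pdx1.

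Depth limits low genes, since 1 count was worth 0.0881 to 0.113 CPM in old and 0.111 to 0.255 CPM in young day 2 libraries. Whole islets do not resolve cell types, run label W0102 holds old libraries only, and 4 libraries per group let single preparations move the counts.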

Other observations

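Several groups that the comparison did not lead with gave single calls. The share called was 13.3% for clock genes, 15% for immediate early genes and 12.5% for T and B cell markers, against 9.97% of all genes. It was 5.26% for genes normally silent in β-cells and 6.25% for fibroblast markers. Of 15 tested clock genes, 1 was higher and 1 lower in old islets, and the lower one was Clock itself, at 99.96 to 132 CPM in young and 88.6 to 101 CPM in old islets (log2 fold change -0.30, SE 0.081, adjusted p = 0.0468), with overlapping groups. Among 20 immediate early genes, Junb (1.01) and Btg2 (0.52) were higher and Nr4a2 (-0.68) was lower, but 0 higher members were called within W0054.

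Of 8 tested T and B cell markers, Igj, the joining chain of secreted antibodies, was higher at 0 to 1.06 CPM in young and 1.57 to 4.07 CPM in old islets (log2 fold change 2.9996, adjusted p = 0.0468), a call that held in 1 of the 8 fits that left out 1 library. Of 19 genes normally silent in β-cells, 1 was called, Oat, which was lower by 0.64 on the log2 scale (adjusted p = 0.0414). Of 16 fibroblast markers, 1 was called higher, Igfbp5, a call lost when any 1 library was left out. Within W0054, 0 fibroblast markers were called higher and 5 lower. The Y-linked genes Ddx3y and Uty were present at 69.4 to 96.1 CPM and 42.9 to 58.0 CPM in all 8 libraries of these male mice, and neither passed the test between ages (adjusted p = 0.313 and 0.652).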
